A study of Sus scrofa with 6 samples.

Results

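Muscle-enriched miRNAs whose genes lie inside other genes were followed in the left atrium (LA) of paced and sham pigs. They are all probes named ssc-miR-208b, ssc-miR-499 or ssc-miR-378, with or without an arm suffix, and the rule found 4 of the 322 pig probes on the array: miR-208b, miR-499-5p, miR-499-3p and miR-378. The rule uses names and no intensity. Total RNA from the LA of 3 sham and 3 paced pigs was labelled with Cy3 and hybridized to 1-colour miRNA arrays, with 1 array per animal. In paced pigs, 3 bursts of pacing at 800 bpm were delivered to the right atrium through a venous catheter, after a beta blocker, esmolol, had been given, and tissue was taken 20 to 24 hours later. Sham pigs were operated on without burst pacing, and whether they also received esmolol is not given in the sources used here. The methods describe pigs of 3 months and the sample labels neonatal piglets, for both groups alike. The induced AF ended by itself, so the model is one of brief arrhythmia in healthy animals, read once in the chamber opposite the catheter.

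A mature miRNA guides an Argonaute protein to messenger RNAs that pair with its seed, bases 2 to 8 from its 5′ end, and lowers their stability and translation. An miRNA that lies in an intron is usually cut from the transcript of its host gene, so that its level often follows the activity of the host promoter. MYH7, the host of miR-208b, encodes the slow (beta) cardiac myosin heavy chain, and MYH7B, the host of miR-499, encodes a related myosin whose locus yields much miRNA and little protein in mammalian heart. PPARGC1B, a host of miR-378, encodes PGC-1 beta, a co-activator of genes of mitochondrial energy metabolism. Both miR-208b and miR-499 belong to the group known as myomiRs and are linked to the slow muscle programme, while miR-378 is abundant in heart, skeletal muscle and brown fat.

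The target sequences in the deposited array files are shown because the seeds bear on which members can share targets. The full sequences bear on which probes could bind the same RNA. The letters run from 5′ to 3′, and capitals mark the seed.
miR-208b: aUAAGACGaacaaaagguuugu
miR-499-5p: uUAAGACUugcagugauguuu
miR-499-3p: aACAUCACagcaagucugugcu
miR-378: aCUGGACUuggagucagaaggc
The seeds of miR-208b and miR-499-5p matched at 6 of 7 positions, through the shared run UAAGAC, and differed at the last. Past the seed the pair diverged, with 10 of 21 positions equal in all. Bases 2 to 8 of each member occurred at that place in no other of the 322 probes. The longest run of bases that any non-member shared was 7 for miR-208b and 8 for the other members, so no other target on the array was near-identical to a member.

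The miR-499 arms come from the same hairpin. In the ungapped antiparallel alignment with the most pairs, 16 of 20 facing bases formed Watson-Crick pairs and 1 a G-U wobble. In the RefSeq gene table of Sscrofa11.1, the MIR208B gene lay within the span of MYH7 and MIR499 within that of MYH7B. The table lists 2 MIR378 genes, one within PPARGC1B and the other within BCAS3, and a single miR-378 probe cannot tell their products apart. These are overlaps of gene spans, and whether each hairpin is intronic or exonic was not read from that table. The array held 0 probes for miR-208a, the miRNA of the alpha myosin gene MYH6, and 0 for miR-378b.

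With all 6 arrays, none of the 4 members differed between paced and sham LA beyond the spread between animals, and in all 4 the groups overlapped. By limma on all 6 arrays, 0 of 4 had an unadjusted p below 0.05, against 10.6% of the 322 probes, and no probe on the array was called after Benjamini-Hochberg adjustment (0% of 322). Separate, non-overlapping groups were seen in 0 of 4 members, against 17.4% of all 322 probes and 4.81% of the 104 bright probes. With 4 members, these shares are a description only. Here a probe counts as well above background where its 9 repeat spots have a median over the empty-spot median plus 3 SD of those empty spots, and a bright probe is one that meets this on all 6 arrays.

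For miR-208b, the myomiR of the slow cardiac myosin gene, the normalized log2 intensities were 8.18, 8.59 and 8.77 in sham replicates 1 to 3 and 7.87, 9.19 and 8.29 in paced replicates 1 to 3. Both the lowest and the highest of the 6 values came from paced animals, and the sham values lay between them. The means were 8.51 ± 0.30 in sham and 8.45 ± 0.67 in paced LA (SD, n = 3 each), a difference of -0.06 (SE 0.33, 95% interval from -0.85 to 0.72, adjusted p = 0.958, limma). One of the paced values, that of replicate 1, is a background value, as given below, so no exact ratio is given. The direction of the mean difference depended on the scaling and on single animals. It was 0.05 with cyclic loess, 0.23 without paced replicate 1 (95% interval from -0.46 to 0.93) and -0.44 without paced replicate 2.

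miR-208b was well above background on 5 of the 6 arrays. The scanner medians were 445, 306 and 404 in sham and 406, 814 and 442 in paced replicates 1 to 3. These were 2.08, 4.72 and 3.44 times the median of the empty spots in sham and 1.02, 3.36 and 1.69 times in paced arrays. In paced replicate 1 its signal of 406 was below the 550 that the criterion asked for on that array, so its log2 value there is close to background and no measured level. The same 5 arrays passed when each spot was judged against its 15 nearest empty spots, a criterion chosen after the data were seen.

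miR-499-5p, the guide arm from the MYH7B locus, was bright on every array. Its normalized log2 intensities were 12.22, 12.01 and 12.25 in sham and 11.90, 12.65 and 12.42 in paced replicates 1 to 3. Sham animals lay close together, whereas paced animals included values below and above all of them. The means were 12.16 ± 0.13 and 12.32 ± 0.39 (SD, n = 3 each), which gave a difference of 0.16 (SE 0.19, 95% interval from -0.29 to 0.62, adjusted p = 0.788, limma), or a ratio of 1.12 with an interval from 0.818 to 1.54. Without paced replicate 1 the difference was 0.37, its 95% interval from 0.11 to 0.63 left out 0 and its unadjusted p in limma was 0.0133. In that fit 1 of the 4 members was called unadjusted, against 69 of the 322 probes, and 9 of the 322 were called after adjustment. The adjusted p of miR-499-5p there was 0.107, against a range from 0.107 to 0.985 over all alternatives. Without paced replicate 2 the difference was 0.02. The scanner medians of 6985, 3478 and 4670 in sham and 2901, 6940 and 5089 in paced animals stood 7.27 to 53.8 times over the empty spots.

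miR-499-3p, the passenger arm of the same hairpin, passed neither criterion on any array. Its scanner medians were 0.815, 1.11 and 1.05 times those of the empty spots in sham and 0.829, 1.16 and 0.942 times in paced replicates 1 to 3. Its log2 values of 6.64, 7.02 and 6.84 in sham and 7.05, 6.93 and 6.84 in paced animals therefore bound its level from above, and no fold change is given (adjusted p = 0.747, limma). No order of the groups could be read from such values.

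miR-378, the member tied to the PGC-1 beta locus, was also bright on every array. Its log2 intensities were 12.87, 12.74 and 12.55 in sham and 12.70, 12.51 and 12.51 in paced replicates 1 to 3. The highest values were those of sham replicates 1 and 2, but paced replicate 1 exceeded sham replicate 3, so the groups overlapped. Means of 12.72 ± 0.16 in sham and 12.58 ± 0.11 in paced LA (SD, n = 3 each) differed by -0.15 (SE 0.10, 95% interval from -0.39 to 0.10, adjusted p = 0.653, limma), a ratio of 0.904 with an interval from 0.762 to 1.07. The difference was below 0 in all 21 alternatives, some of which cannot change it by construction, and its adjusted p ranged from 0.222 to 0.985. The scanner medians of 10614, 6652 and 6072 in sham and 5149, 6314 and 5444 in paced replicates were 12.9 to 103 times those of the empty spots.

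**Figure D1:**
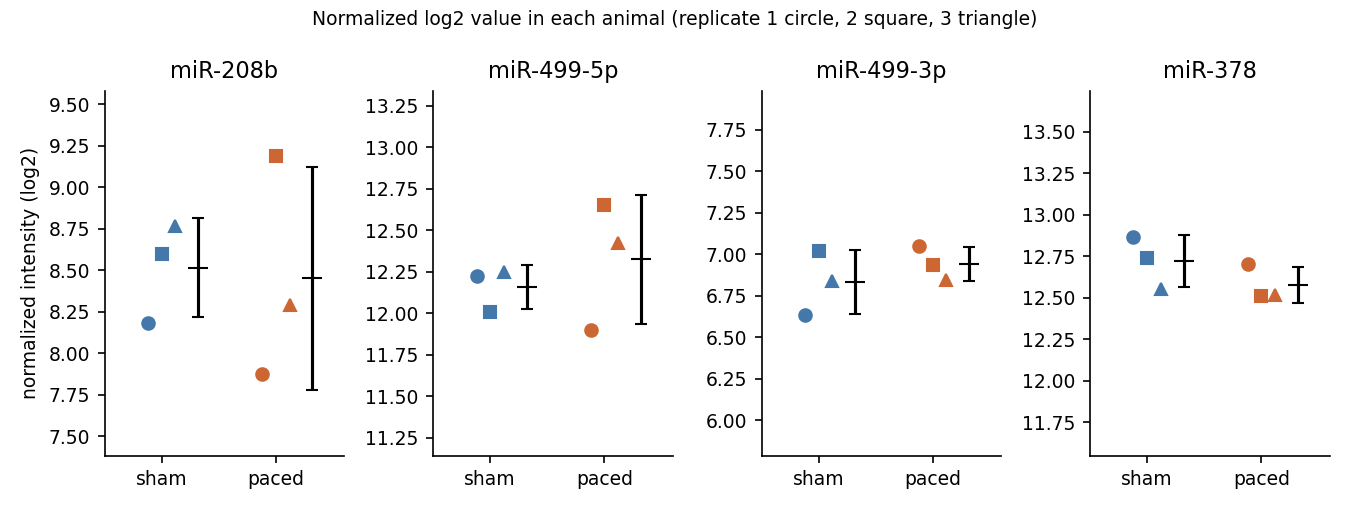
Normalized log2 intensity of each of the 4 miRNAs in each animal (circle, square and triangle for replicates 1, 2 and 3), with the group mean and SD as a black bar beside it (n = 3 each) and an axis of equal length but different centre in each panel. In every panel the paced values overlap the sham values, and the paced values of miR-208b run from 7.87 to 9.19, beyond the sham range on both sides. The 7.87 is a background value.

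**Figure D2:**
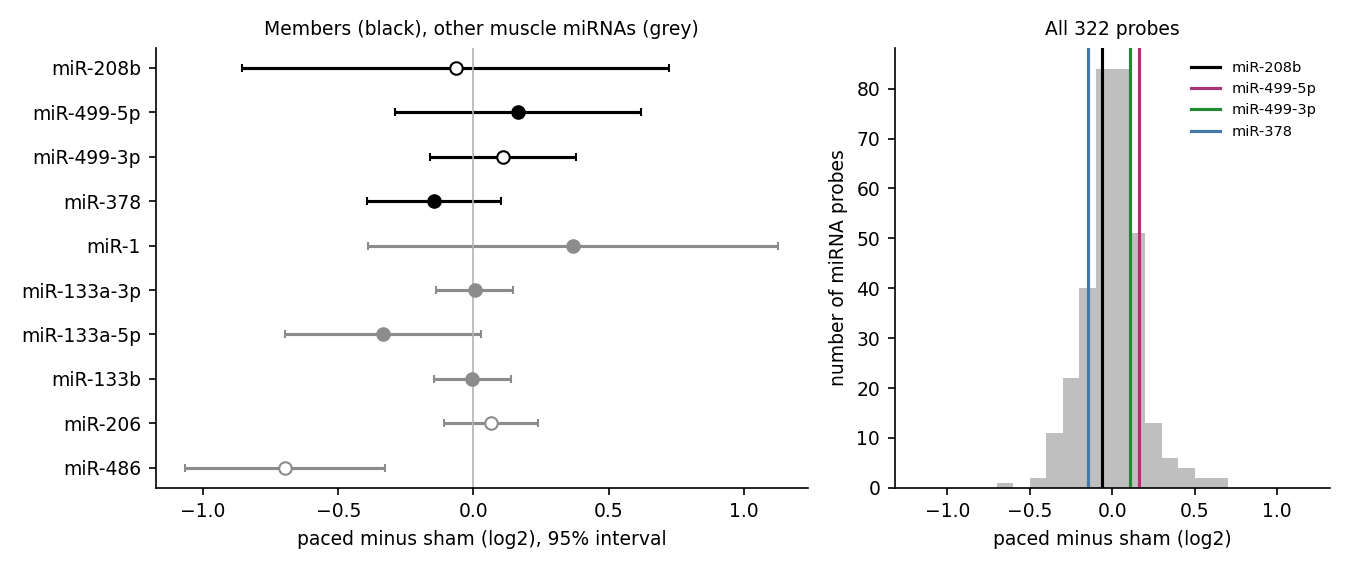
Left, paced minus sham difference in log2 intensity with its 95% interval from limma for the 4 members (black) and 6 other muscle miRNAs (grey), open circles marking probes that are not bright; right, histogram of the difference over all 322 probes, with a line for each member. The intervals of all 4 members include 0, the widest being that of miR-208b, from -0.85 to 0.72, and the members lie in the body of the histogram.

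The scanner background differed between arrays and bears on the dim members. The empty-spot median was 64.7 to 214 on sham arrays and 242.5 to 399 on paced arrays, so every paced array was above every sham array, and 126 to 175 probes were well above background on sham against 104 to 158 on paced arrays. The part of this background in the values of miR-208b and miR-499-3p was not tested. Over the 3 sham and 3 paced arrays, the muscle markers summed to 59892 to 62153 and 57724 to 68853 normalized units, and 4 of the 5 on the array were well above background on all 6. The fifth was miR-208b, and both it and miR-499-5p are members of that list. The brightest probes, miR-133a-3p and miR-133b, made up 76.0% to 78.9% of that sum in sham and 68.6% to 81.8% in paced LA, and quantile normalization holds their values in place. The skeletal muscle marker miR-206, the liver marker miR-122 and the epithelial marker miR-205 did not pass on any array. Red cell markers summed to 12427 to 17302 in sham and 8419 to 12528 in paced LA, and smooth muscle markers to 19230 to 22956 and 17107 to 19081. In the same order, endothelial markers summed to 8521 to 10179 and 8284 to 9590, and leukocyte markers to 959 to 1242 and 945 to 1223. Of the red cell markers, miR-144 passed on no array. The endothelial marker miR-126-5p and the leukocyte markers miR-142-3p and miR-142-5p were also well above background on no array. The array held 3 of the 4 listed leukocyte markers and 1 of the 4 listed epithelial markers. The part of these cell types in the values of the members was not tested. In bulk tissue, fewer cells of a type and less RNA per cell cannot be told apart.

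The repeat spots give the noise within an array. The coefficient of variation over the 9 spots of an array was 3.21% to 8.77% for miR-208b, 4.46% to 14.4% for miR-499-5p, 3.69% to 11.4% for miR-378 and 5.81% to 20.0% for the dim miR-499-3p. On the log2 scale, the SD over the spots of an array was 0.17 for miR-208b, while its SD between animals of a group was 0.52, which is 3.06 times as large. The same ratio was 1.82 for miR-499-5p, 1.23 for miR-378 and 0.643 for miR-499-3p. That of miR-208b includes paced replicate 1, where its value is at background. These ratios set values averaged over spots against single spots. Each array's value is a mean of 9 spots, whose standard error was 0.057 for miR-208b, 0.053 for miR-499-5p, 0.037 for miR-378 and 0.080 for miR-499-3p. Against that standard error, the SD between animals of a group was 9.17 times as large for miR-208b, with paced replicate 1 included. It was 5.45 times as large for miR-499-5p, 3.70 for miR-378 and 1.93 for miR-499-3p. Spread between animals and between hybridizations cannot be told apart with 1 array each.

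The bright members also showed a gradient over the array. When the repeat spots were taken in 3 bands of rows, the signals of miR-499-5p and miR-378 fell from the first band to the last on all 6 arrays, by a ratio of first to last of 1.12 to 1.29 for miR-499-5p and 1.07 to 1.32 for miR-378. Of the 104 bright probes, 99 had spots in every band, and 34 of these fell in the same way on all 6 arrays (34.3%). The median ratio over the 99 probes was 1.14 in sham and 1.14 in paced arrays. Each value used for the comparison averages the spots of all bands.

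**Figure D3:**
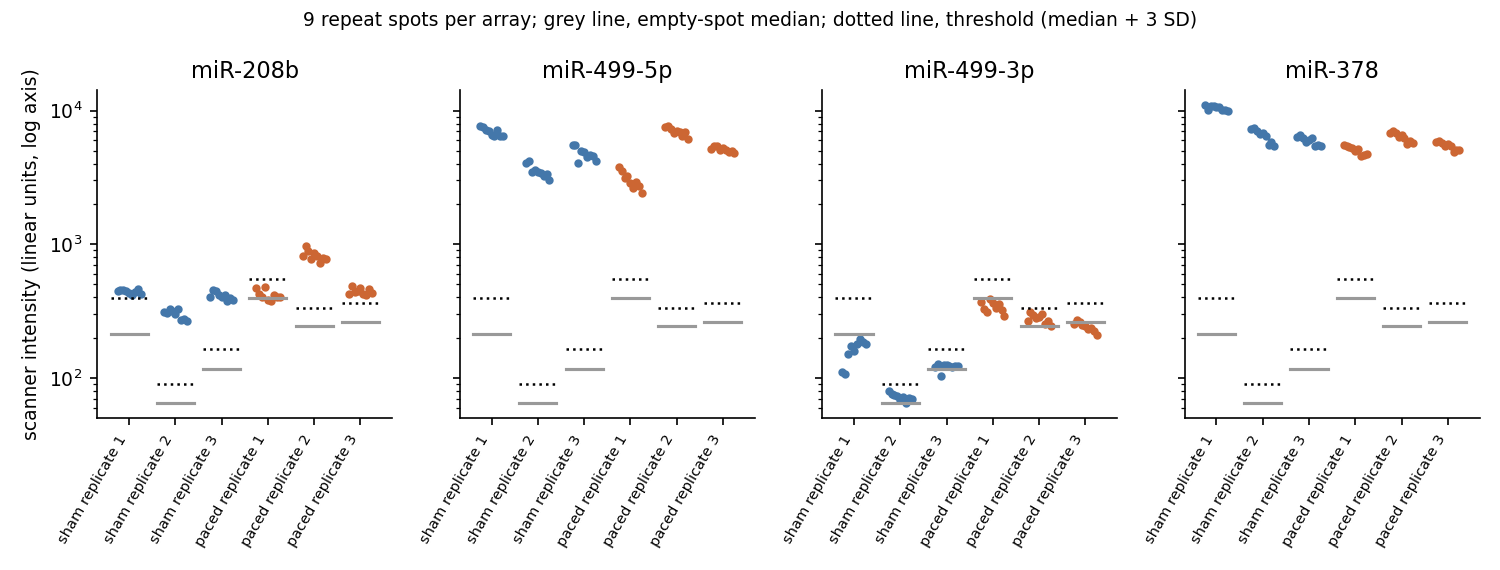
Scanner intensity (linear units on a log axis) of the 9 repeat spots of each member on each array, before background correction, with a grey line at the empty-spot median of that array and a dotted line at the criterion of that median plus 3 SD. The spots of miR-499-5p and miR-378 stand far above both lines, those of miR-208b lie at the empty-spot level in paced replicate 1, where the ratio is 1.02, and those of miR-499-3p lie at that level throughout.

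The members varied unequally between animals of a group. The pooled within-group SD was 0.52 for miR-208b, above every one of the 104 bright probes, whose median SD was 0.16. miR-208b is itself not bright, and among all 322 probes it stood at percentile 98.3. Of the 75 probes well above background on some arrays only, 5 others had a larger SD. The pooled SD was 0.29 for miR-499-5p, at percentile 88.9 of the 104 bright probes, and 0.14 for miR-378, at percentile 38.0. The SD of miR-208b was 0.30 in sham and 0.67 in paced animals, and that of miR-499-5p was 0.13 and 0.39. Each SD rests on 3 animals, and the difference between groups was not tested. Over the 104 bright probes, the root-mean-square log2 difference of an array from the mean of the other 5 was 0.23 to 0.28 for paced and 0.14 to 0.21 for sham arrays, so each paced array stood further from the rest than any sham array. Without paced replicate 1, where miR-208b is at background, its pooled SD was 0.46, and that of miR-499-5p was 0.14. Without paced replicate 2 the pooled SD of miR-208b was 0.30.

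The members with near-equal seeds, miR-208b and miR-499-5p, had their lowest value in paced replicate 1 and their highest in paced replicate 2. After centring on the mean of all 6 arrays, those values were -0.61 and 0.71 for miR-208b and -0.34 and 0.41 for miR-499-5p. The -0.61 of miR-208b comes from a background signal. This order of arrays was not particular to miR-208b and miR-499-5p. Of the 104 bright probes, 13 were lowest in paced replicate 1 and highest in paced replicate 2, and paced replicate 1 was lowest for 15 and paced replicate 2 highest for 17. In miR-378 the same animals had centred values of 0.05 and -0.14. Within an array, the log2 value of miR-208b minus that of miR-499-5p shifted by -0.23 from sham to paced, with SDs of 0.35 and 0.36. That shift includes the background value of miR-208b in paced replicate 1. The value of miR-378 minus miR-499-5p shifted by -0.31, with SDs of 0.23 and 0.49. The latter difference was 0.64, 0.73 and 0.30 by array in sham and 0.81, -0.14 and 0.09 in paced replicates, so the groups overlapped.

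For the 2 bright members, the probes with the most similar profile were found by the root-mean-square difference between centred log2 values over the 6 arrays, among 102 other bright probes. The nearest to miR-499-5p were miR-186, at 0.06, miR-30a-5p, at 0.09, and miR-30e-3p, at 0.12, against a median of 0.31. The nearest to miR-378 were miR-16 and miR-181a, both at 0.04, and miR-28-3p, at 0.07, against a median of 0.16. The members themselves were 0.35 apart. Since quantile normalization and 6 shared libraries enter every profile, these distances are a description.

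**Figure D4:**
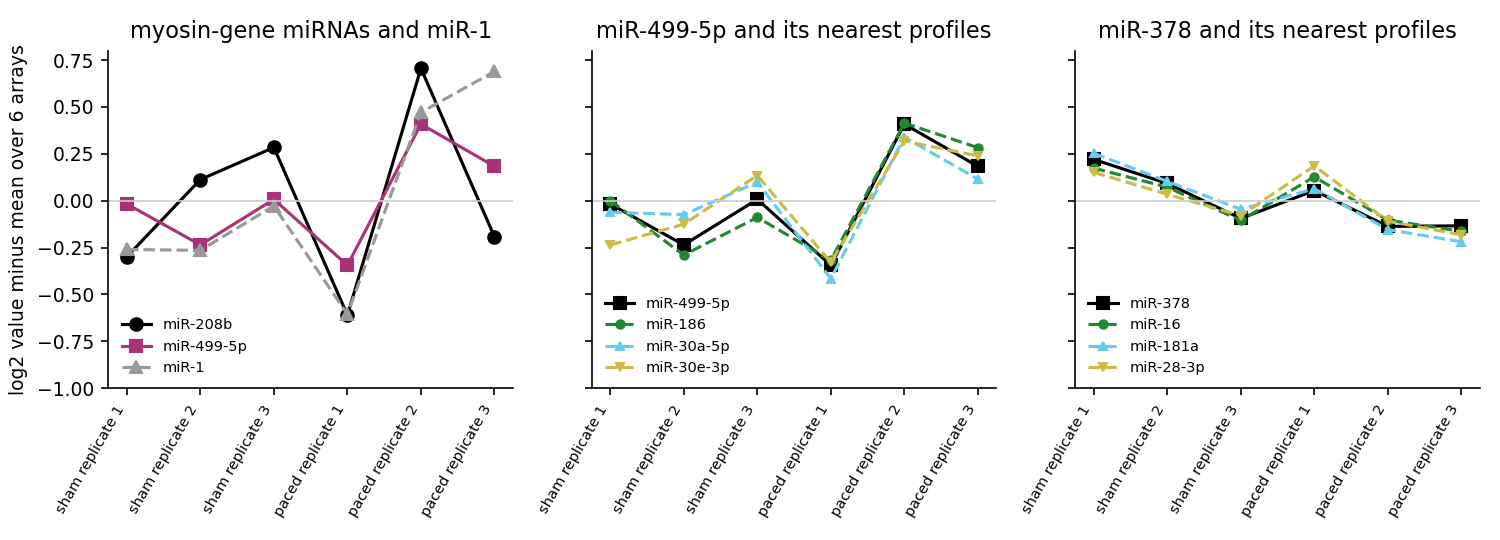
Log2 intensity on each of the 6 arrays after centring each probe on its own mean, for miR-208b, miR-499-5p and miR-1 (left) and for miR-499-5p (middle) and miR-378 (right) with the 3 probes nearest to each; the lines only join the values of a probe, since the animals have no order. miR-208b and miR-499-5p are both lowest in paced replicate 1 and highest in paced replicate 2, and miR-208b is at background in the former. miR-378 stays between -0.14 and 0.22.

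The other muscle miRNAs were read from the same fit. All 6 of the list were on the array, 4 of them bright. At an unadjusted p, 1 of the 6 was called, and 0 after adjustment, with 3 higher and 3 lower in paced LA and a median difference of 0.00 against 0.00 over all probes. miR-1, which like miR-133 acts in the development and conduction of cardiac muscle, had a difference of 0.37 (adjusted p = 0.731). Its normalized log2 intensities of 13.00, 12.99 and 13.23 in sham and 12.65, 13.73 and 13.95 in paced replicates overlapped and spread more in paced animals. miR-133a-3p and miR-133b gave differences of 0.00 each, but as the brightest probes they are held in place by quantile normalization. The differences were -0.33 for miR-133a-5p (adjusted p = 0.474) and 0.07 for miR-206, which passed on no array. The one called at the unadjusted p was miR-486, a miRNA of muscle and red cells, with log2 values of 8.50, 8.96 and 8.99 in sham and 7.92, 8.24 and 8.20 in paced replicates. Its groups did not overlap and its difference was -0.70 (unadjusted p = 0.00302, adjusted p = 0.148, limma), but it was well above background in only 2 of the 3 paced animals.

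**Figure D5:**
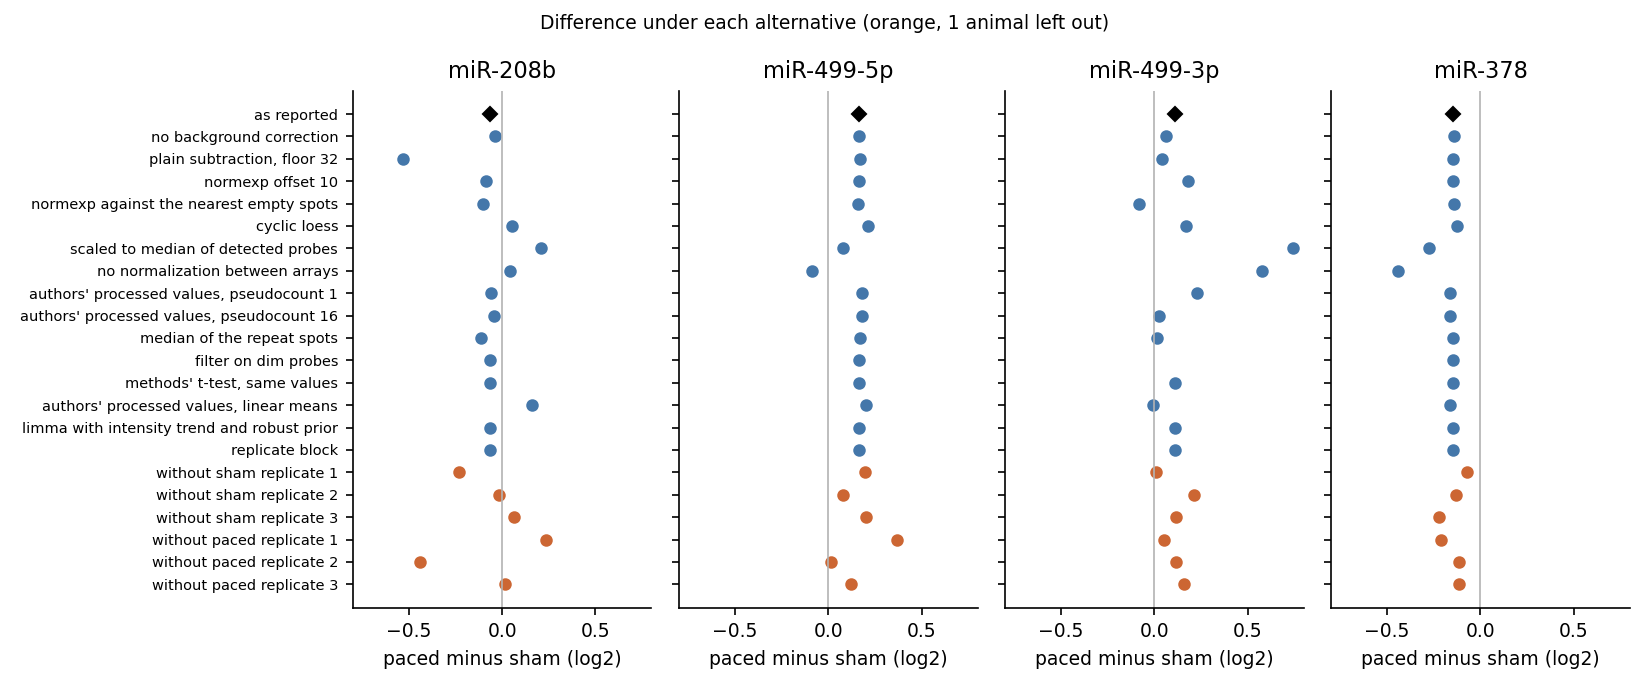
Paced minus sham difference in log2 intensity (x axis) of each member as reported (black diamond), under each other processing (blue) and with 1 animal left out (orange). The points of miR-208b fall on both sides of 0, from -0.53 to 0.23, those of miR-378 stay below 0, and those of miR-499-5p stay above 0 except for -0.09 without normalization between arrays.

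The authors' processed values are linear intensities on another normalization. For miR-208b they were 173, 276 and 315 in sham and 118, 521 and 216 in paced replicates, with means of 255 ± 73.2 and 285 ± 210 (SD, n = 3 each), and again both extremes were paced animals. For miR-499-5p the means were 4386 ± 647 in sham and 5040 ± 1251 in paced LA, and for miR-378 they were 6653 ± 761 and 5937 ± 544. The ratio of paced to sham means was 1.15 for miR-499-5p and 0.892 for miR-378. miR-499-3p had values from 1.99 to 17.0 in all 6 animals, near the bottom of the scale.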

How the data were processed

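LA miRNA was measured on 6 1-colour arrays, 3 sham and 3 paced, grouped by the labels. The authors deposited scanner values, a linear median intensity per spot with background included and no normalization, from a GenePix scanner and Array-Pro software per the methods. They also deposited 1 processed intensity per probe and array, whose background correction and normalization are not given in the sources used here. Probe content follows miRBase release 20.

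Of 3968 spots an array, 2898 held the 9 repeats of 322 pig probes and 1070 were controls, 786 of them empty. All spots were corrected by normexp with an offset of 50. Control spots were dropped, the pig spots were quantile-normalized, log2-transformed and averaged over repeats, and groups were compared by limma's lmFit and eBayes (limma 3.58.1, R 4.3.3) over all 322 probes with Benjamini-Hochberg adjustment at 0.05. The offset compresses dim probes. A 2-fold change in all signal above it would read as 0.90 for miR-208b and 0.64 for miR-499-3p on the log2 scale, against 0.99 for the bright members. That signal can include background left after correction. The sham means of miR-206 and miR-122, which passed on no array, were 6.79 and 6.72, against 6.83 for miR-499-3p. A 2-fold change of miR-499-3p itself could therefore read as less than 0.64, and the 0.90 of miR-208b may also be too high. Labels do not tie replicate numbers to shared litters or batches, and no slide or scan batch is named. p values measure the spread between these arrays, whose number limits the precision. In limma, eBayes draws each probe's variance towards a value shared over all 322 probes. Its intervals and p values therefore do not rest on a probe's own spread alone. The members, marker lists, likeness rule (the 3 nearest bright probes) and alternatives were chosen with earlier results of these data known. Only the limma comparison was tested on simulated data, with a log2 change of 1 and an SD of 0.15 between animals. Background correction, normalization and averaging of spots were not part of that test. The SD between animals was larger for miR-208b (0.52) and miR-499-5p (0.29), so the test does not carry over to them. Gene spans came from a RefSeq table of Sscrofa11.1, and no genome was used. Plots were made in matplotlib 3.10.9 under Python 3.11.15.

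Alternatives changed 1 choice at a time, except that the authors' processed values differ in background correction and normalization together, and the methods' t-test on them also in scale and test. They covered background (none, plain subtraction with a floor of 32, normexp offset 10, normexp against the 15 nearest empty spots), normalization (cyclic loess, scaling to the median of bright probes, none, the authors' processed values with a pseudocount of 1 or 16), repeat spots by median, a dim-probe filter, limma with trend and robust prior, the methods' t-test, the replicate block, and each animal left out. The dim-probe filter, limma with trend and robust prior, the t-test on the log2 values used here and the replicate block reuse the same log2 values. By construction they leave the difference of a probe unchanged, so its direction there is no separate check.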

Additional observations from a re-analysis of the deposited data

How the results depend on the processing

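Of 21 alternatives, some cannot change a difference by construction. miR-378 stayed negative, from -0.44 to -0.07, and -0.22 to -0.07 with an animal left out. miR-499-5p stayed positive in 20 of 21, but was -0.086 without normalization between arrays, and ranged from 0.02 to 0.37 with an animal left out. miR-208b kept its direction in 14 of 21. It reversed to 0.052 with cyclic loess, 0.21 when arrays were scaled to the median of bright probes, 0.043 without normalization and 0.16 by the methods' t-test on the authors' processed values, and spanned -0.44 to 0.23 with an animal left out. No alternative for these 3 gave an adjusted p below 0.05. The values of miR-499-3p, background on all 6 arrays, carry no direction and are listed only as fitted. They were -0.080 with normexp against the nearest empty spots and -0.0057 by the methods' t-test on processed values, and ran from 0.0084 to 0.21 with an animal left out. Scaling gave 0.74 (adjusted p = 0.000897, range over its alternatives 0.000897 to 0.995), but moved the median of all probes by 0.44, and omitting normalization moved it by 0.27. The cause of these reversals was not tested. Limma on log2 processed values (pseudocounts 1, 16) gave miR-208b -0.059, -0.044 and miR-499-3p 0.23, 0.027.

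The 34 probes with an unadjusted p below 0.05 became 181 with scaling, 15 without normalization and 5 with the dim filter, which kept 126 probes. Leaving out 1 animal gave 18 to 69, with 18 without paced replicate 3, 20 without sham replicate 2 and 69 without paced replicate 1. The 0 adjusted calls by limma became 171 with scaling and 0 to 9 with an animal left out, 9 without paced replicate 1. The calls with scaling rest on the shared variance described above and not on each probe's own spread. The methods' t-test gave 39 unadjusted calls from the log2 values used here and 29 from the processed values, and 0 adjusted in both. The 56 probes with non-overlapping groups became 190 with scaling, 17 without normalization and 74 to 128 with an animal left out, where fewer animals overlap less often by construction.

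The labels do not say whether the replicate numbers pair the animals. Deviations of same-numbered sham and paced arrays correlated at 0.18, -0.01 and 0.22 over 104 probes. For sham replicates 1 and 3 the same-numbered paced array correlated highest, and for sham replicate 2 it was paced replicate 3, at 0.09. Correlations among so few arrays cannot decide whether the numbers pair the animals. With the replicate number as a block, 33 probes passed unadjusted and 0 adjusted, and the members had adjusted p values of 0.918 (miR-208b), 0.761 (miR-499-5p), 0.75 (miR-499-3p) and 0.510 (miR-378).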
